A study of Mus musculus with 6 samples.

Results

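The genes described here are Nfe2l2, which encodes the transcription factor NRF2, its inhibitor gene Keap1, and 8 antioxidant and metabolic target genes: Nqo1, Hmox1, Gclc, Gclm, Txnrd1, Srxn1, Me1 and Slc7a11. These 10 genes were chosen by name from a table of 29493 genes, and all 10 were in the table and passed the filter on low counts. Their messenger RNA was quantified by RNA sequencing in HT22 cells, a neuron-like line established from mouse hippocampus. All 6 libraries came from the stable line HT22-TR/TO-V5Klf13-1, in which a V5-tagged transgene for the Krüppel-like factor KLF13 is held off by the tet repressor until doxycycline is added. The Dox cells received 1 µg/ml doxycycline for 8 hours (n = 3) and the Vehicle cells received none (n = 3). Dox cells without the transgene are not analysed here, so responses to KLF13 and to the drug cannot be told apart. The labels do not say whether the libraries of a group came from separate cultures, and p-values therefore measure the spread between these libraries, which may be technical.

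NRF2 is a basic leucine zipper factor that cells use against oxidants and reactive chemicals. In unstressed cells KEAP1 holds NRF2 on a CUL3 ubiquitin ligase that sends it to the proteasome. Oxidants modify cysteines of KEAP1, NRF2 then accumulates, pairs with a small MAF protein and binds the antioxidant response element of its target genes. Much of this control acts on the protein, which RNA sequencing does not measure. HT22 cells are widely used as a model of oxidative glutathione depletion, in which cystine uptake through the transporter encoded by Slc7a11 is blocked.

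Total counts per library ranged from 38566798 to 52930384, and the 10 genes held between 1202 and 20161 counts in each library. Klf13 itself stood at 205, 188 and 184 CPM (counts scaled to the effective size of the library) in Dox libraries, against 37.0, 36.1 and 39.1 CPM in Vehicle libraries. Of 20 neuronal markers 13 were in the table and 8 passed the filter. Map2, a dendritic microtubule protein of neurons, held only 0.0405 to 0.151 CPM in Dox libraries and 0.116 to 0.265 CPM in Vehicle libraries, whereas the neuronal tubulin Tubb3 averaged 14.7 ± 0.41 CPM with Dox and 60.8 ± 0.21 CPM with Vehicle (SD, n = 3 each). Rbfox3 and Snap25 are not analysed here. The 13 neuronal markers summed to 145.8 to 148.7 CPM in Dox libraries and 261.8 to 272.7 CPM in Vehicle libraries, and 13 of 14 fibroblast markers to 13780 to 14190 CPM in Dox libraries and 16680 to 17120 CPM in Vehicle libraries. Microglial markers (7 of 8 in the table) summed to 26.8 to 28.4 CPM with Dox and 35.4 to 37.5 CPM with Vehicle, oligodendrocyte markers (5 of 8) to 1.48 to 1.79 and 2.20 to 3.05 CPM, and astrocyte markers (7 of 8) to 57.8 to 220.9 and 74.9 to 204.9 CPM. All of these sums but the astrocyte one were lower in every Dox library. Single genes weighed heavily in them. In the neuronal sum Ncam1 averaged 113.1 CPM with Dox and 167.4 CPM with Vehicle. In the astrocyte sum Gja1 ranged from 9.20 to 175.3 CPM with Dox and 34.9 to 166.4 CPM with Vehicle. Slc1a3 of that list was higher in every Dox library, averaging 45.7 CPM against 38.4 CPM. Of 12 tested fibroblast markers 9 fell, but S100a4 was higher in every Dox library. The microglial sum was carried by Tmem119, at 19.9 ± 0.43 CPM with Dox and 30.4 ± 1.196 CPM with Vehicle, while Ptprc, at 7.27 ± 0.406 and 5.38 ± 0.148 CPM (SD, n = 3 each), rose and the list median log2 fold change was 0.43. These genes were named after their values were seen, and the part of the marker sums in the results was not tested. All libraries came from the same stable line, and bulk RNA does not show whether a sum changed in all of its cells or in some.

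The response of the 10 genes was split. With Dox, 5 fell and 3 rose at an edgeR adjusted p under 0.05, and 2 did not pass. Both Nfe2l2 and Keap1 fell, while of the 8 targets 3 rose, 3 fell and 2 did not pass. The same test called 54.7% of the 18067 genes tested, and 70.9% of the 11629 genes with a mean of at least 5 CPM, where all 10 genes lie, so the 8 called are not far from the background. By direction the background was 25.9% higher and 28.8% lower of all genes tested. Of the 11629 genes of at least 5 CPM, 4072 rose and 4176 fell. The median log2 fold change of the 10 genes was -0.06, against 0.02 for all genes tested, and their median size without sign was 0.33, the same as that of all genes tested. Groups did not overlap for 9 of the 10 genes, where 64.0% of all genes tested had groups that did not overlap. That share was not taken for genes of at least 5 CPM, so it is no background of like level. Scaling mattered for the small changes: upper-quartile scaling, which moved the median of all genes from 0.02 to 0.11, gave 5 of the 10 genes higher and 4 lower, and 6246 of all genes higher and 4457 lower instead of 4687 and 5203.

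**Figure D1:**
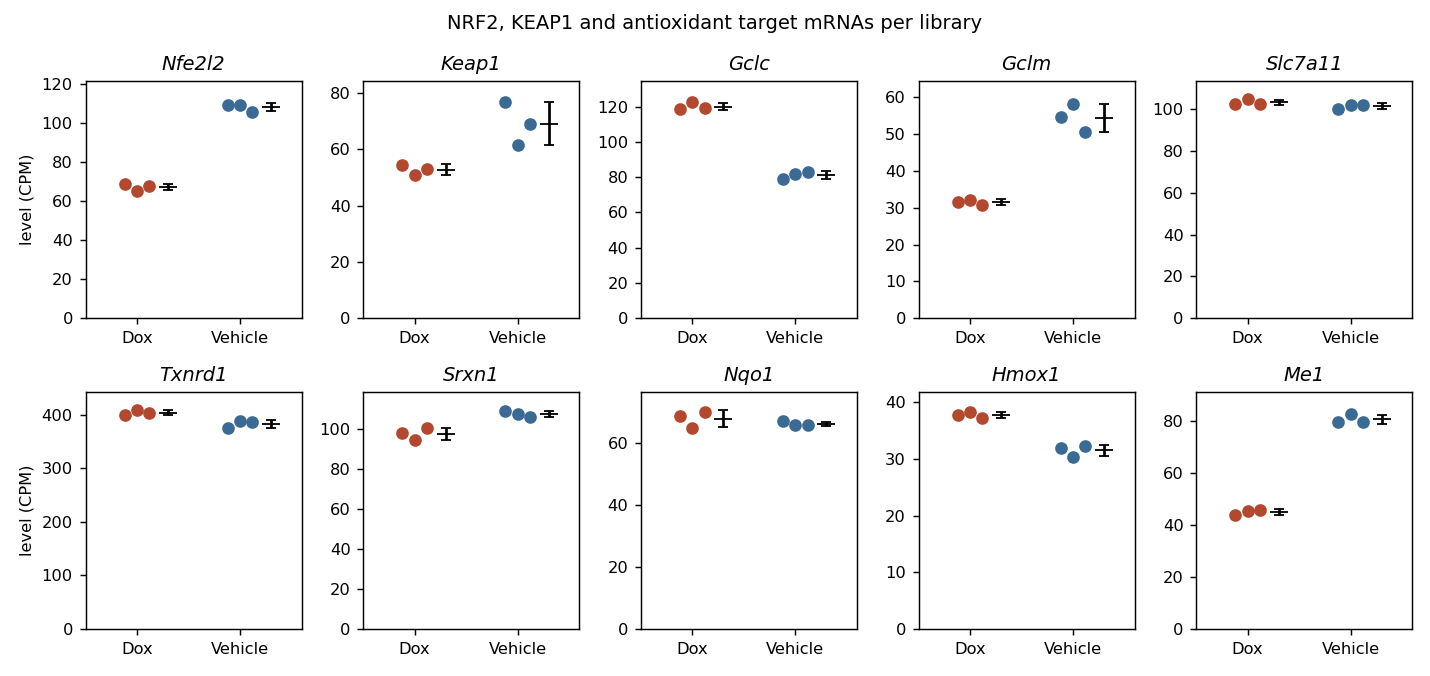
Level of each gene in CPM (vertical axes from 0, a different scale for each gene) in the 3 Dox libraries (red, left) and the 3 Vehicle libraries (blue, right), with the mean and SD beside them. Nfe2l2, Keap1, Gclm and Me1 sit well below their Vehicle libraries with Dox and Gclc above, while Slc7a11, Txnrd1, Srxn1 and Nqo1 lie close to them.

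Letters matching the core of the antioxidant response element, the sequence that NRF2 and its partner bind, were looked for near the starts of these genes. The core searched was TGACNNNGC, on both strands, in windows from 250 bases before to 50 bases after each annotated start (RefSeq, GRCm38.p6). Of the 10 genes, 8 had a window, 11 windows in all, and 5 genes held the core in 1 window each: Nfe2l2, Gclm, Me1, Srxn1 and Txnrd1. Gclc and Hmox1 had no window, so they were not searched. The core was in 12.4% of 32851 windows of the same length, and in a window of 16.7% of the 10219 tested genes that had one. The matches are shown to let the letters be compared between genes; binding was not measured. Each is printed 5′ to 3′ on the strand of its gene with the core in capitals, which reads GCNNNGTCA where the core lies on the opposite strand.
Nfe2l2: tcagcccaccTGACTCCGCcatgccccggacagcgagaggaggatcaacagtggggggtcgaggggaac
Gclm: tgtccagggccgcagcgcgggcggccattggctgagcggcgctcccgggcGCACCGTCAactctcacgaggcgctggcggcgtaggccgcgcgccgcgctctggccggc
Me1: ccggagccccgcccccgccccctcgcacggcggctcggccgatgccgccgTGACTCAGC
Srxn1: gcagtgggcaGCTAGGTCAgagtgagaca
Txnrd1: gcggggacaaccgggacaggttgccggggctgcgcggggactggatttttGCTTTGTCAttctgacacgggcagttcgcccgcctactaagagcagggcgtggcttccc
The stretches lie at chr2:75704845-75704913 (minus strand) for Nfe2l2, chr3:122245373-122245481 (plus) for Gclm, chr9:86695912-86695970 (minus) for Me1, chr2:152105542-152105570 (plus) for Srxn1 and chr10:82859064-82859172 (plus) for Txnrd1. The core of Me1 spans the RefSeq start of its window, and that of Srxn1 lies past the start of its own. The GENCODE M21 model of Me1 starts further upstream, at chr9:86695953.

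Counted from the RefSeq start of its window, the core begins at base -240 in Nfe2l2, -134 in Gclm, -92 in Txnrd1, -6 in Me1 and 29 in Srxn1. Txnrd1 and Me1 had more than 1 window, and the core of each was in only 1. The Txnrd1 window with the core, chr10:82858956-82859255, lies inside the gene, which begins at chr10:82833951. Across the table, the core did not go with a direction: of 1709 tested genes with it in a window 30.1% were higher and 33.2% lower with Dox, and of 8510 tested genes without it 30.3% were higher and 34.4% lower. The GC box GGGCGG, a motif to which Krüppel-like and SP factors bind, was in a window of 7 of the 8 genes, Slc7a11 being the exception, and of 66.4% of the tested genes that had a window. By window it was in 7 of the 11 of these genes and in 35.7% of all windows. Of the 6783 tested genes with GGGCGG 41.4% were lower and 26.5% higher, against 20.1% lower and 37.8% higher of the 3436 without it. The shorter motif CACCC was in a window of 5 of the 8 genes and of 65.9% of the tested genes with a window. By window it was in 57.5% of all windows. Of the 6735 tested genes with CACCC 37.6% were lower and 27.1% higher, against 27.8% lower and 36.5% higher of the 3484 without it. A match says only that these letters are in the window, and windows with GGGCGG had a median of 63.7% G and C, against 48.3% in those without it. The part of base composition in these shares was not tested.

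The transcripts of the factor and of its inhibitor both fell. Nfe2l2 lies at chr2:75675513-75704641 and Keap1 at chr9:21229730-21239361 (GRCm38, GENCODE M21). Nfe2l2 stood at 68.7, 65.3 and 67.7 CPM in Dox libraries, against 109, 109 and 106 CPM in Vehicle libraries. Every Dox library lay below every Vehicle library, a 1.61-fold fall (log2 fold change -0.69 ± 0.031 SE, edgeR adjusted p = 8.4e-06), and 20.9% of all genes tested changed by at least as much. Keap1 stood at 54.5, 50.7 and 52.9 CPM in Dox libraries, against 76.7, 61.6 and 69.0 CPM in Vehicle libraries. The Vehicle libraries of Keap1 spread widely but did not overlap with Dox, and the fall was 1.31-fold (log2 fold change -0.39 ± 0.081 SE, edgeR adjusted p = 0.0063). Keap1 no longer passed when tested against a fold change of 1.2 with glmTreat (adjusted p = 0.076). It shares 510 exonic bases with the opposite-strand gene Gm16754, which held 193 to 275 counts in Dox libraries and 178 to 266 in Vehicle libraries, and whether strand was used in counting is not given.

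Because both transcripts fell, their balance was followed within each library, where no scaling enters. The ratio of Nfe2l2 to Keap1 counts was 1.26, 1.29 and 1.28 in Dox libraries, against 1.43, 1.78 and 1.53 in Vehicle libraries. The ratio was lower in every Dox library, 0.812 times that with Vehicle (two-sided exact permutation p = 0.1, and 0.1 adjusted over 2 ratios, the smallest that 3 libraries against 3 allow).

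**Figure D2:**
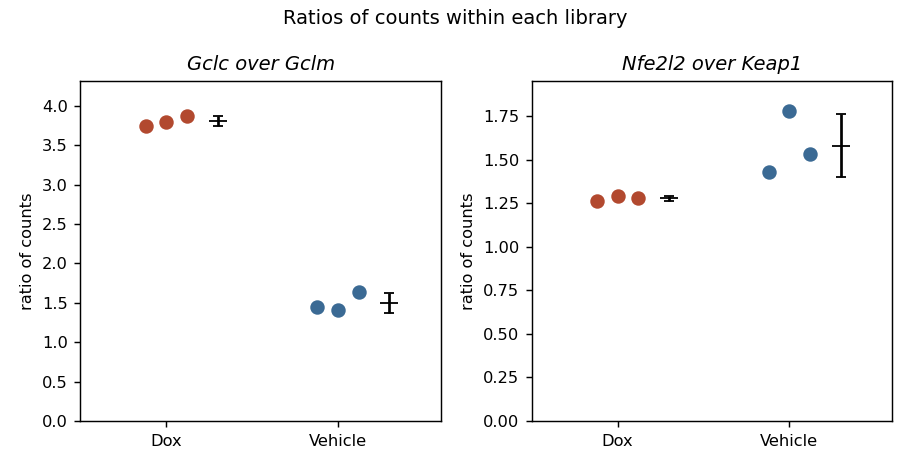
Ratio of Gclc to Gclm counts (left) and of Nfe2l2 to Keap1 counts (right) within each library, Dox in red and Vehicle in blue, with mean and SD. The Gclc to Gclm ratio is 3.75 to 3.87 in Dox libraries and 1.41 to 1.64 in Vehicle libraries, and the Nfe2l2 to Keap1 ratio is 1.26 to 1.29 and 1.43 to 1.78.

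Among 21 tested regulators and partners of NRF2, 12 fell, 4 rose and 5 did not pass (median log2 fold change -0.42). That is 76.2% called, where 54.7% of all genes tested and 70.9% of those of at least 5 CPM were called. Of all genes tested 28.8% fell, and of the 11629 genes of at least 5 CPM 4176 fell. Cul3, the scaffold of the KEAP1 ligase, averaged 134.9 ± 4.44 CPM with Dox and 200.2 ± 3.99 CPM with Vehicle (SD, n = 3 each, edgeR adjusted p = 1.8e-05). Rbx1, the RING subunit of that ligase, averaged 114.3 ± 3.17 CPM with Dox and 113.1 ± 3.37 CPM with Vehicle (SD, n = 3 each) and did not pass (edgeR adjusted p = 0.74). Btrc, the F-box protein of another ligase that recognises NRF2, fell 2.84-fold to 7.61 ± 0.477 CPM with Dox, against 21.6 ± 0.357 CPM with Vehicle (SD, n = 3 each). Of these 3 ligase genes Rbx1 alone did not pass.

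Nfe2l1, a relative of Nfe2l2 that drives proteasome genes, fell 2.49-fold, to 34.6, 31.5 and 35.4 CPM in Dox libraries, against 84.4, 81.0 and 87.4 CPM in Vehicle libraries. The small MAF genes, whose products pair with NRF2, did not move together. Maff fell 1.82-fold (edgeR adjusted p = 3.6e-05), Mafk rose 1.297-fold (edgeR adjusted p = 2.4e-04), and Mafg averaged 145.2 ± 8.89 CPM with Dox and 148.8 ± 12.2 CPM with Vehicle (SD, n = 3 each, edgeR adjusted p = 0.70). Bach1, a repressor that competes with NRF2 for the same element, averaged 36.5 ± 0.978 CPM with Dox and 36.4 ± 5.17 CPM with Vehicle (SD, n = 3 each, edgeR adjusted p = 0.99). Pgam5, a mitochondrial phosphatase that KEAP1 binds, rose 1.44-fold (edgeR adjusted p = 6.4e-06). Btrc, Pgam5, Mafg and Mafk share exonic bases with Gm6807, Gm26718, Sirt7 and Tmem184a, so their counts may include reads of those neighbours. Gm6807 held 5435 to 6188 counts in Dox libraries and 4557 to 6108 in Vehicle libraries, where Btrc held 322 to 377 and 815 to 1101. Sirt7, on the strand of Mafg, held 1455 to 2104 and 727 to 1345. Gm26718 held 541 to 681 and 351 to 452, and Tmem184a 24 to 52 and 145 to 158.

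The genes of glutathione synthesis split most clearly. Glutamate-cysteine ligase, the rate-limiting enzyme of the pathway, has a catalytic subunit encoded by Gclc (chr9:77754535-77794485) and a modifier subunit encoded by Gclm (chr3:122245557-122270732). Gclc stood at 118.7, 122 and 119 CPM in Dox libraries, against 78.8, 82.0 and 82.9 CPM in Vehicle libraries. All Dox libraries were higher, and the rise was 1.48-fold (log2 fold change 0.56 ± 0.030 SE, edgeR adjusted p = 1.5e-05). Gclm stood at 31.6, 32.2 and 30.8 CPM in Dox libraries, against 54.6, 58.1 and 50.6 CPM in Vehicle libraries. All Dox libraries were lower, and the fall was 1.73-fold (log2 fold change -0.79 ± 0.057 SE, edgeR adjusted p = 5.0e-05).

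The ratio of Gclc to Gclm counts was 3.75, 3.80 and 3.87 in Dox libraries, against 1.44, 1.41 and 1.64 in Vehicle libraries. With Dox the ratio was 2.55 times that with Vehicle (two-sided exact permutation p = 0.1, and 0.1 adjusted over 2 ratios, the smallest possible). Since Gclc was higher and Gclm lower in every Dox library, the ratios could not overlap. The test therefore adds nothing to the results of the 2 genes. Gclm shares 296 exonic bases with the opposite-strand gene Gm17494, which held 3 to 7 counts in Dox libraries and 4 to 7 in Vehicle libraries, and 244 bases with Gm6061, which is not analysed here.

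Slc7a11 (chr3:49892526-50443614) encodes xCT, the light chain of the cystine-glutamate exchanger that supplies cysteine for glutathione. It stood at 102.5, 104.7 and 102.5 CPM in Dox libraries, against 99.8, 102.1 and 102.1 CPM in Vehicle libraries. The lowest Dox library lay just above the highest Vehicle library, and the gene did not pass (log2 fold change 0.03, 95% interval -0.03 to 0.09, edgeR adjusted p = 0.40). With upper-quartile scaling the log2 fold change was 0.12 and passed (edgeR adjusted p = 0.005).

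Of 19 other tested genes of glutathione synthesis, recycling and transport, 8 rose, 6 fell and 5 did not pass (median log2 fold change 0.12). Called were 73.7% of them, against 54.7% of all genes tested and 70.9% of those of at least 5 CPM. With upper-quartile scaling 10 rose and 3 fell. Chac1, which degrades glutathione, rose 2.02-fold, to 140.8 ± 2.15 CPM with Dox, against 69.7 ± 0.288 CPM with Vehicle (SD, n = 3 each, edgeR adjusted p = 1.5e-06). Cth, which makes cysteine from cystathionine, rose 1.47-fold, and Gpx8, a peroxidase of the endoplasmic reticulum, rose 1.35-fold. Of 15 glutathione S-transferase genes, which join glutathione to reactive chemicals, 3 rose, 4 fell and 8 did not pass (median log2 fold change 0.11). Called were 46.7% of them, against the same 54.7% and 70.9%, and some of these genes lie under 5 CPM. With upper-quartile scaling 4 were higher and 2 lower. Mgst1, a membrane-bound transferase, fell 1.87-fold, Gsta4, which clears lipid aldehydes, fell 1.16-fold, and Gsto1 rose 1.18-fold. Gsta4 did not pass with upper-quartile scaling (log2 fold change -0.12, edgeR adjusted p = 0.058). Gsta4 (adjusted p = 0.93) and Gsto1 (0.81) did not pass with glmTreat, which follows from estimates under 1.2-fold.

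The thioredoxin genes changed little among the targets. Txnrd1 (chr10:82833951-82897712) encodes the cytosolic thioredoxin reductase, a selenoprotein that passes electrons from NADPH to thioredoxin. It stood at 399.6, 408.5 and 403.4 CPM in Dox libraries, against 374.9, 388.2 and 387.0 CPM in Vehicle libraries. Dox libraries were higher by a small margin, 1.05-fold (log2 fold change 0.08 ± 0.023 SE, edgeR adjusted p = 0.030). That call was lost without Dox replicate 2 (adjusted p = 0.078) or 3 (0.060), without Vehicle replicate 1 (0.083) or 3 (0.061), with no filter on low counts (0.12) and with glmTreat (1).

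Srxn1 (chr2:152105516-152111376) encodes sulfiredoxin, which repairs over-oxidised peroxiredoxins. It stood at 98.2, 94.6 and 100.5 CPM in Dox libraries, against 109, 107.5 and 106.3 CPM in Vehicle libraries. All Dox libraries were lower, 1.10-fold (log2 fold change -0.14 ± 0.031 SE, edgeR adjusted p = 0.0087). The call was lost with upper-quartile scaling (log2 fold change -0.05, edgeR adjusted p = 0.28) and with glmTreat (1).

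Of 19 other thioredoxin, peroxiredoxin and sestrin genes, 12 fell, 4 rose and 3 did not pass (median log2 fold change -0.28). Called were 84.2% of them, against 54.7% of all genes tested and 70.9% of those of at least 5 CPM. Of all genes tested 28.8% were lower, and of the 11629 genes of at least 5 CPM 4176 were lower. Txnrd3, a thioredoxin and glutathione reductase known from testis, fell 9.13-fold, to 2.30, 1.60 and 1.76 CPM in Dox libraries, against 16.2, 17.5 and 17.9 CPM in Vehicle libraries. Txnrd2, the mitochondrial thioredoxin reductase, named after its values were seen, fell by 0.28 on the log2 scale. Sesn1, a stress-induced regulator of growth signalling, fell 1.76-fold, and Selenos, a selenoprotein of the endoplasmic reticulum, rose 1.75-fold. Of 5 genes that remove superoxide and peroxide, 3 rose, 0 fell and 2 did not pass, a called share of 60% that is near the 54.7% of all genes tested and under the 70.9% of those of at least 5 CPM. Sod2, the mitochondrial superoxide dismutase, averaged 119.5 ± 3.34 CPM with Dox and 90.4 ± 2.01 CPM with Vehicle (SD, n = 3 each, edgeR adjusted p = 7.9e-05). Cat, which encodes catalase, rose 1.26-fold and Ccs, the copper chaperone of superoxide dismutase, rose 1.23-fold. Cat (adjusted p = 0.063) and Ccs (0.14) did not pass with glmTreat.

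Nqo1, Hmox1 and Me1 act on quinones, haem and NADPH supply, and their responses were unlike. Nqo1 (chr8:107388225-107403206) encodes a quinone reductase often used as a readout of NRF2 activity. It stood at 68.6, 64.7 and 69.9 CPM in Dox libraries, against 66.9, 65.6 and 65.6 CPM in Vehicle libraries. The groups overlapped and the gene did not pass (log2 fold change 0.04, 95% interval -0.05 to 0.13, edgeR adjusted p = 0.44), but with upper-quartile scaling it did (log2 fold change 0.13, edgeR adjusted p = 0.029).

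Hmox1 (chr8:75093621-75100589) encodes haem oxygenase, which breaks haem down to iron, carbon monoxide and biliverdin. It stood at 37.7, 38.3 and 37.3 CPM in Dox libraries, against 31.9, 30.4 and 32.3 CPM in Vehicle libraries. All Dox libraries were higher, and the rise was 1.199-fold (log2 fold change 0.26 ± 0.038 SE, edgeR adjusted p = 0.0013). Hmox1 did not pass against a fold change of 1.2 with glmTreat (adjusted p = 0.50), which follows from an estimate under 1.2-fold. Me1 (chr9:86581371-86695953) encodes the cytosolic malic enzyme, which makes NADPH while turning malate into pyruvate. It stood at 43.7, 45.4 and 45.7 CPM in Dox libraries, against 79.6, 82.5 and 79.6 CPM in Vehicle libraries. This was the deepest fall of the 10 genes, 1.79-fold (log2 fold change -0.84 ± 0.032 SE, edgeR adjusted p = 4.7e-06), and 14.8% of all genes tested changed by at least as much.

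**Figure D3:**
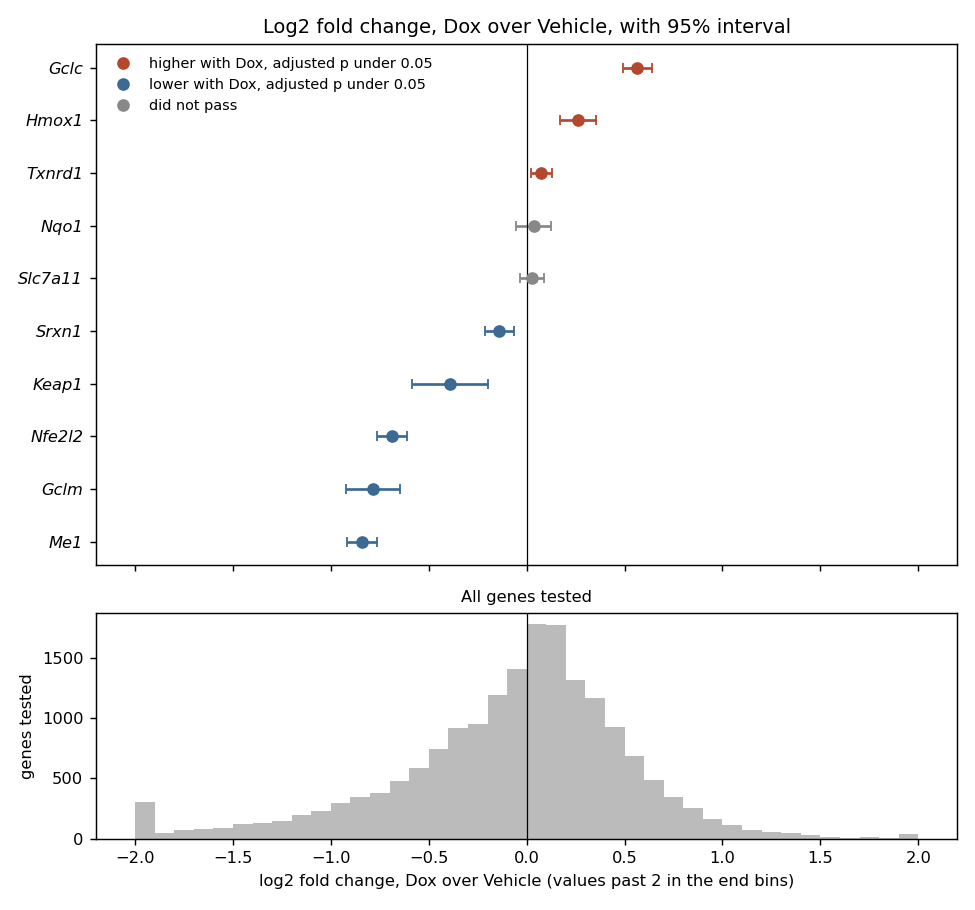
Log2 fold change, Dox over Vehicle, of each gene with its 95% interval (upper panel) and the number of all 18067 genes tested in each bin of 0.1 on the same axis (lower panel). Me1, Gclm and Nfe2l2 lie lowest, Gclc highest, and the intervals of Nqo1 and Slc7a11 include 0.

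Of 13 other tested genes of NADPH supply, 6 fell, 2 rose and 5 did not pass (median log2 fold change -0.07). Called were 61.5% of them, against 54.7% of all genes tested and 70.9% of those of at least 5 CPM. With upper-quartile scaling 4 fell and 5 rose. The NADP-dependent isocitrate dehydrogenase genes Idh1 and Idh2 fell 1.79-fold and 1.37-fold, and Mthfd1, an enzyme of folate metabolism, rose 1.41-fold. Of 13 genes of haem and iron handling, 4 rose, 4 fell and 5 did not pass, also 61.5% called. Blvra, biliverdin reductase, which acts on the product of haem oxygenase, rose 1.50-fold. Aco1, the iron-sensing cytosolic aconitase, fell 1.77-fold and Slc48a1, a haem transporter, fell 1.51-fold (edgeR adjusted p = 8.8e-06 for Slc48a1 and 4.4e-06 for Aco1).

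Of 20 other detoxification genes, 10 fell, 6 rose and 4 did not pass (median log2 fold change -0.10). Called were 80% of them, against 54.7% of all genes tested and 70.9% of those of at least 5 CPM. With upper-quartile scaling 8 were lower and 6 higher. Cbr3, a carbonyl reductase, fell 2.03-fold to 22.4 ± 0.858 CPM with Dox, against 45.5 ± 0.874 CPM with Vehicle (SD, n = 3 each). Ugdh, which makes the sugar used for glucuronidation, fell 1.81-fold and Akr1b3, aldose reductase, rose 1.39-fold. Ugdh shares exonic bases with Gm43552 on the same strand. Over the 8 wider lists together, 125 of 141 genes were tested, 34 rose, 54 fell and 37 did not pass, so that 70.4% were called against 54.7% of all genes tested. Restricted to a mean of at least 5 CPM, 75.4% of 114 wider genes were called against 70.9% of all genes, so their share is close to the background. With upper-quartile scaling 42 were higher and 43 lower.

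**Figure D4:**
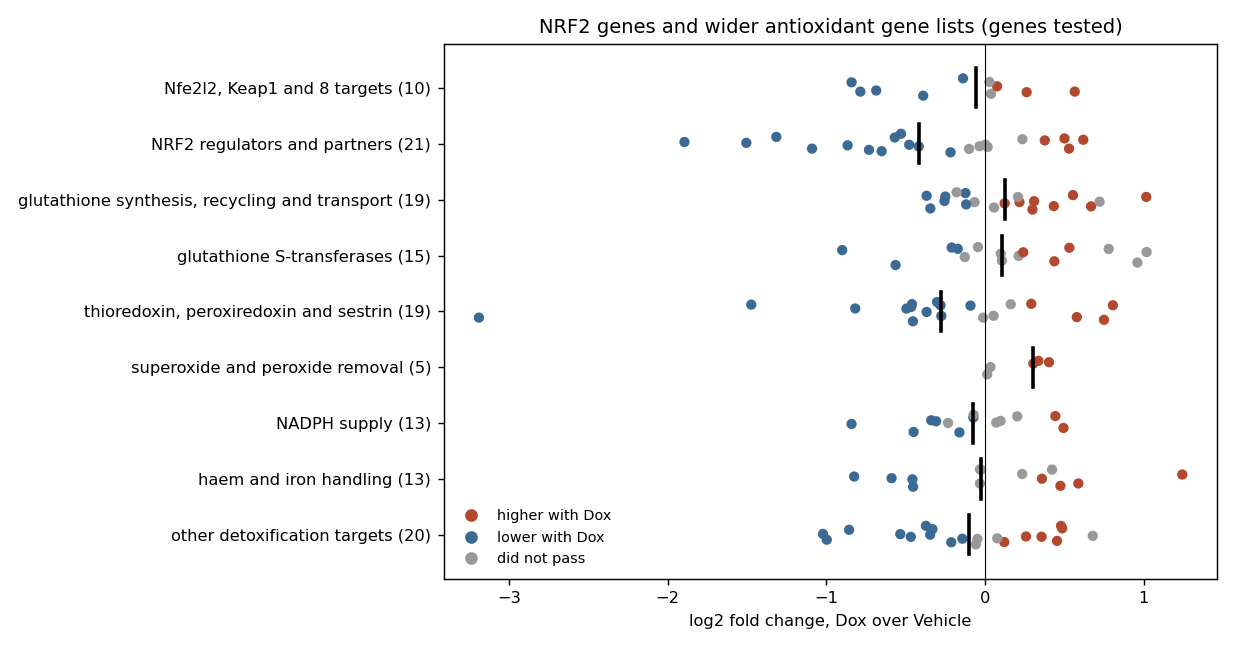
Log2 fold change, Dox over Vehicle, of each tested gene in the 10 genes and in 8 wider lists (number tested in brackets), higher in red, lower in blue and not passing in grey, with the list median as a black bar. The medians run from -0.42 for regulators and partners to 0.30 for superoxide and peroxide removal.

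Levels were also compared between the genes per kilobase of their longest coding transcript (GENCODE M21), since longer transcripts collect more reads. In Vehicle libraries Txnrd1 was highest at 105.8 ± 2.03 CPM per kilobase (SD, n = 3), followed by Nfe2l2 at 43.7 ± 0.852 and Nqo1 at 42.5 ± 0.48, whose libraries overlapped. Gclm was lowest, at 5.65 ± 0.126 CPM per kilobase with Dox and 9.74 ± 0.68 with Vehicle (SD, n = 3 each). With Dox, Nfe2l2 stood at 27.2 ± 0.712 CPM per kilobase, below Nqo1 at 43.6 ± 1.74, Gclc at 35.1 ± 0.586 and Srxn1 at 34.8 ± 1.06 (SD, n = 3 each). Gclc and Srxn1 overlapped with Dox, and so did Gclc and Me1 with Vehicle, at 23.7 ± 0.636 and 24.5 ± 0.503 CPM per kilobase (SD, n = 3). These orders depend on the transcript assumed, which may not be the main one in HT22 cells.

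In the authors' deposited table of the same libraries, 7 of the 10 genes were called and Nqo1, Txnrd1 and Slc7a11 were not. Called there were 26.1% of all its genes and 42.6% of the genes tested here. Both shares include many genes of low level, and none was taken for genes of at least 5 CPM. The 7 called therefore have no background of like level. The authors' deposited table gave log2 fold changes of -0.84 for Me1, -0.78 for Gclm, -0.68 for Nfe2l2 and 0.56 for Gclc. For Txnrd1 the authors' deposited table gave an adjusted p of 0.044, above the limit of 0.01 that its calls follow.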

How the data were processed

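The 6 libraries of HT22 cells, 3 Dox and 3 Vehicle, were grouped by their titles. Tools named in the submitters' processing notes are FastQC 0.11.3 and HISAT2 2.1.0, StringTie 1.3.3, and also DESeq2; the build named there is GRCm38, and what each tool did is not stated. No source used here gives the annotation or strand setting. Whole-number counts per gene symbol, not normalized, were deposited by the authors. Their deposited comparison table holds, per the file headers, an average signal after normalization, the log2 fold change with its error, a test score, and p-values before and after adjustment.

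filterByExpr left 18067 of 29493 genes. All genes were fitted together with TMM scaling and the quasi-likelihood test of edgeR 4.0.16 (R 4.3.3, limma 3.58.1), with treatment as the single term. Calls use Benjamini-Hochberg adjustment over all genes tested at 0.05. The standard error was taken as the log2 fold change divided by the root of F, and intervals cover 95%. The common biological coefficient of variation was 12%. Other fits used size factors from DESeq2, upper-quartile scaling, the DESeq2 1.42.0 Wald test, limma-voom and no filter. Further fits used a mean of at least 5 CPM, the replicate number as a block, and 5 libraries at a time. A threshold of 0.01 and glmTreat at 1.2-fold kept the main model and scaling.

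The 10 genes and the lists were chosen with earlier results of these data known, so counts over them have no test. Of the 141 genes in the wider lists, 135 were in the table and 6 are not analysed here. Named genes were the 10 genes, Klf13, up to 3 genes with the smallest p of each wider list among those past the test, the ligase, small MAF and Bach1 genes whatever their p, and 4 neuronal markers. Promoter windows are from RefSeq (GRCm38.p6) and gene models from GENCODE M21 (GRCm38), which may differ from the authors' annotation; overlap means at least 50 shared exonic bases. The fit was tested on simulated data of 18067 genes. It recovered 5 of 50 genes changed 1.25-fold, 23 of 50 at 1.5-fold, 44 of 50 at 2-fold and 45 of 50 at 4-fold. Of 17577 unchanged genes 10 were called. Far fewer genes were changed there than the 9890 called in these data, so its recovery need not hold here. No library repeated another, since chi-square per degree of freedom between replicates was 11.1 to 13.8.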

Additional observations from a re-analysis of the deposited data

How the results depend on the processing

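The 15 alternatives gave 150 comparisons with the main result for the 10 genes. Of these, 137 kept their direction and their side of the threshold, 11 lost the call and 2 gained it, and none turned its direction. The threshold of 0.01 and glmTreat keep the log2 fold changes of the main fit, so no direction could turn there. Against a fold change of 1.2 with glmTreat, 4 of the 10 genes, 56 of the wider genes and 6032 of all genes were called, which that test's own construction lowers; the 4 were Nfe2l2, Gclc, Gclm and Me1. These 4 passed under all 15 alternatives, with log2 fold changes of -0.70 to -0.59 for Nfe2l2, 0.54 to 0.66 for Gclc, -0.84 to -0.69 for Gclm and -0.85 to -0.75 for Me1. Over the 6 fits that leave out a library, 7 to 8 of the 10 genes were called, 78 to 82 of the wider genes and 8987 to 9330 of all genes. Directions turned for 3 genes that did not pass: Rbx1 (-0.011 without Vehicle replicate 2), Mafg (0.058 with upper-quartile scaling, and -0.082 to 0.032 over the fits without 1 library, higher without Dox replicate 2 or Vehicle replicate 3) and Bach1 (-0.0017 with DESeq2 size factors and with the DESeq2 Wald test, and -0.076 to 0.12 over the fits without 1 library, lower without Dox replicate 2, Vehicle replicate 1 or Vehicle replicate 3); the cause was not tested. With the replicate block 8 of the 10 genes, 85 wider genes and 9699 of all genes were called. Deviations of same-numbered libraries correlated at 0.039, 0.044 and -0.075 over 14635 genes. These values show no pairing by number, but they cannot exclude that same-numbered libraries were handled together. The 10 genes held 1202 or more counts in each library, the fewest being those of Hmox1. Slc7a11, Nqo1 and Txnrd1, which changed least, held at least 3766, 2523 and 14142 counts. The part of counting error in the spread between libraries was not tested.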
